A study of Mus musculus with 54 samples.

Results

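Kdr, Tal1, Etv2, Lmo2, Cxcr4 and Pecam1 are genes that mark or drive the progenitors of blood and vessels in the early mouse embryo. They were chosen by name, with earlier results of these data known, as 6 of the 20036 genes of an mRNA sequencing table. They were followed across 27 groups with 2 libraries each. Shares over all tested genes that stand beside counts of the 6 are thus given for scale and test nothing. The groups are 9 mouse lines at 3 stages: embryonic stem cells (ESC), epiblast-like cells (EpiLC) and day 2 primordial germ cell-like cells (PGCLC). Primordial germ cell-like cells are a culture model of the founders of the germ line. Beside wild type (WT) there are 4 lines labelled as knockouts (Ovol1KO, Ovol2KO, Ovol3KO, TKO) and 4 transgenic lines (Cdh1-Tg, Ovol2a/2b-Tg, Ovol2a-Tg, Ovol2b-Tg). In the genotype labels the knockout lines are mutants of Ovol1, Ovol2 or Ovol3 or TKO, an abbreviation that is not spelled out, and the Tg lines overexpress (OE) Ovol2a, Ovol2b, both, or Cdh1. The Ovol genes code for zinc finger proteins that bind DNA, and Cdh1 for E-cadherin, which holds epithelial cells together. All lines share the strain background C57BL/6 X 129/SvJ, no age applies to these cultures, and treatments are not distinguished between lines in the labels. Whether a line is 1 clone, which promoter drives a transgene, and whether a Tg line also carries a knockout were not stated in the labels. The column names of the 3 Ovol2 transgenic lines carry the letters res, which are not spelled out.

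In the embryo, mesoderm that carries KDR, the main receptor for the growth factor VEGF-A, gives rise to endothelial and blood cells. ETV2 is an ETS family transcription factor that starts this programme, TAL1 is a basic helix-loop-helix factor needed for blood formation, and LMO2 is an adaptor protein that joins TAL1 to GATA factors. CXCR4 is the receptor for the chemokine CXCL12 and guides many migrating cells, primordial germ cells among them. PECAM1 is an adhesion protein of endothelial cells that is also found on mouse ESC.

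In the GRCm38 (mm10) annotation all 6 are protein-coding genes. Kdr lies at chr5:75932827-75978458 (minus strand), Tal1 at chr4:115056426-115071755 (plus), Etv2 at chr7:30633616-30635852 (minus), Lmo2 at chr2:103957986-103981878 (plus), Cxcr4 at chr1:128588199-128592293 (minus) and Pecam1 at chr11:106654217-106750628 (minus). The protein-coding gene 4931422A03Rik overlaps Lmo2 on the opposite strand. The labels do not give the strand setting of the counting, so reads from sequence that the pair shares may be mixed. The overlap is of whole gene spans, and how much of it lies in exons was not examined.

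Promoter sequences from RefSeq (GRCm38.p6) matched 4 of the 6 genes. These are Kdr, Tal1, Etv2 and Cxcr4, and no entry was found for Lmo2 and Pecam1. All 4 were called higher in TKO-labelled PGCLC than in WT, as was Pecam1. Each line is the 250 bases before the transcription start, 5′ to 3′ on the strand of the gene, with matches to 4 searched motifs in capitals. A further, downstream start of Tal1 in the table held no match. The windows are chr5:75978456-75978705 (minus) for Kdr, chr4:115056176-115056425 (plus) for the upstream start of Tal1, chr7:30635853-30636102 (minus) for Etv2 and chr1:128592300-128592549 (minus) for Cxcr4.
Kdr: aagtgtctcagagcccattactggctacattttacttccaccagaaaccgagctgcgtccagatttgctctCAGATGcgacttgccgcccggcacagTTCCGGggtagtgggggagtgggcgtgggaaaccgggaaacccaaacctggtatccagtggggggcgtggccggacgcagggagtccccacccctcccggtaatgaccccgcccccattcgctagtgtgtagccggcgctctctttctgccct
Tal1: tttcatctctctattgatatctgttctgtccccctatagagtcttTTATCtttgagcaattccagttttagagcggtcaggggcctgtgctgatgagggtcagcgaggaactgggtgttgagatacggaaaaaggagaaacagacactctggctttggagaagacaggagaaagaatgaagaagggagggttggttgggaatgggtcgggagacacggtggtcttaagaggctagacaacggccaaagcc
Etv2: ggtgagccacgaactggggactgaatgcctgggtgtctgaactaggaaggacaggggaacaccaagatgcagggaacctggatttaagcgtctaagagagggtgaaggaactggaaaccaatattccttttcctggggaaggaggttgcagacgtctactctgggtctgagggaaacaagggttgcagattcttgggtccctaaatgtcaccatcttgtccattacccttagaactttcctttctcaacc
Cxcr4: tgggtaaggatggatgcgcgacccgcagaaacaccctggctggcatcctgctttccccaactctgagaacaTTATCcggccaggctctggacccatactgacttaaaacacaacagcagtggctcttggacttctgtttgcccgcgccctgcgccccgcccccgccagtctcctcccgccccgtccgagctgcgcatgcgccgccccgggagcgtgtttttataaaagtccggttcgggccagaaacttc
The motifs, searched on both strands, were CCGTTA (the core bound by OVOL proteins), CANNTG (the E-box bound by TAL1 and its partners), GATAA (bound by GATA factors) and CCGGAA (bound by ETS factors). Kdr held 1 E-box starting 179 bases upstream and 1 ETS match at 153 bases. Tal1 and Cxcr4 held 1 GATA match each, at 205 and 179 bases upstream, and Etv2 held none of the 4. The OVOL core was in none of these windows and in 2.2% of all 32851 RefSeq promoter windows of this length. The E-box was in 66.2% of them, the GATA motif in 22.6% and the ETS motif in 12.0%. No match overlapped another, and a match or its lack says nothing on binding.

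Values are TPM, the authors' deposited measure of the share of mRNA per unit of gene length. Whole reads behind them could be worked out for 17442 genes, and the libraries held 2.16 to 26.73 M such reads (median 8.65 M, where M stands for 1e+06). The libraries labelled as knockouts kept mRNA of the named gene: Ovol2 was at 4.74 and 6.68 TPM in Ovol2KO-labelled PGCLC, 1.52 and 0.835 TPM in TKO-labelled PGCLC and 11.3 and 6.98 TPM in WT PGCLC. One TPM per gene cannot show whether part of a gene is missing, so these values do not check the labels. In the Ovol2 transgenic lines Ovol2 in PGCLC ranged from 296 TPM in an Ovol2b-Tg library to 3400 TPM in an Ovol2a/2b-Tg library. Cdh1 in Cdh1-Tg PGCLC was 562 and 563 TPM against 312 and 320 TPM in WT. Ovol2 in Cdh1-Tg was 1.46 and 1.46 TPM in PGCLC and 1.8 and 1.5 TPM in ESC, below WT (10.6 and 4.98 TPM in ESC). In EpiLC it was 11.2 and 10.5 TPM, near the WT pair (9.51 and 12.7 TPM). Cdh1-Tg PGCLC thus differed from WT in Ovol2 as well as in Cdh1 mRNA, and the part of each was not tested. Groups were taken from the titles. The cell type tag contradicts the title in 8 libraries: the PGCLC pair of Ovol2a-Tg and all 6 libraries of Cdh1-Tg. In those 8 the stage markers followed the title. For example the formative epiblast markers (Fgf5, Pou3f1, Dnmt3b and Otx2) summed to 149 and 125 TPM in the Ovol2a-Tg PGCLC pair and to 1470 and 1670 TPM in its EpiLC pair. The results of these 2 lines rest on the titles, and the other comparisons share only an estimate of the spread with them.

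A gene was called changed when limma gave a Benjamini-Hochberg adjusted p under 0.05 over all 14416 tested genes and the difference in log2(TPM + 1) was at least 1. All 6 genes passed the filter on low values. Adding 1 to the TPM makes the differences of scarce genes smaller than their ratio. The labels do not state separate cultures, so a p measures the spread between these libraries. In a bulk library fewer cells that express a gene and less RNA per cell cannot be told apart.

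**Figure D1:**
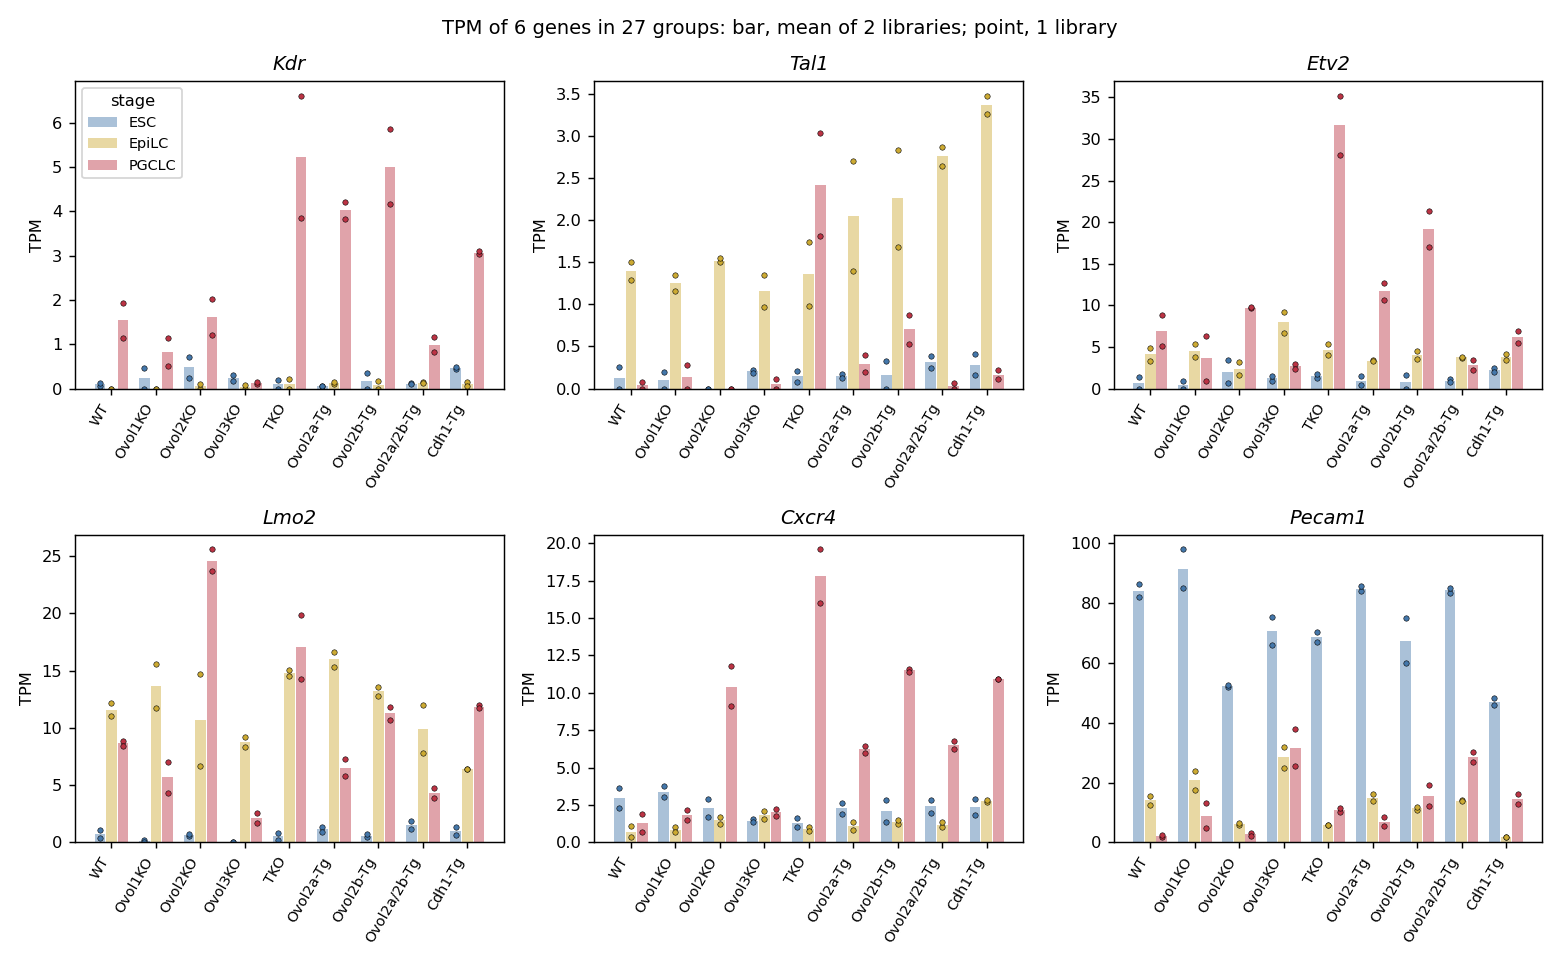
TPM (y axis, linear, own scale per gene) of the 6 genes in 9 lines (x axis) at 3 stages (colours). Bars are means of 2 libraries and points are single libraries. Pecam1 was highest in ESC, Tal1 and Lmo2 were low in ESC, and Kdr, Etv2 and Cxcr4 reached their highest levels in PGCLC labelled TKO.

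Along the path of WT cells the 6 genes did not move as a block. Lmo2, Etv2 and Tal1 rose from ESC to EpiLC, Kdr rose from EpiLC to PGCLC, and Pecam1 fell at both steps. Lmo2 was at 0.382 and 1.1 TPM in the 2 WT ESC libraries, 11.0 and 12.2 TPM in EpiLC and 8.87 and 8.44 TPM in PGCLC. The ESC and EpiLC values do not overlap, and the rise was 2.89 ± 0.26 on the log2 scale (SE, adjusted p = 6.52e-12). Pecam1 was at 86.5 and 81.9 TPM in ESC, 12.6 and 15.6 TPM in EpiLC and 1.90 and 2.36 TPM in PGCLC. It was the most abundant of the 6 in WT ESC by TPM, and it fell by 2.50 ± 0.24 at the EpiLC step (adjusted p = 6.33e-11) and by 2.27 ± 0.24 at the PGCLC step (adjusted p = 6.34e-10).

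Tal1 peaked in WT EpiLC. Its TPM was 0.254 and 0 in ESC, 1.5 and 1.29 in EpiLC and 0 and 0.0736 in PGCLC, which was 1 read in the 2 PGCLC libraries together. The EpiLC libraries stood above all others of WT, with a rise of 1.1 ± 0.21 from ESC (adjusted p = 2.46e-05) and a later fall of 1.21 ± 0.21 (adjusted p = 5.18e-06). Kdr had 1 read in each WT ESC library, none in the WT EpiLC pair, and 1.93 and 1.15 TPM in WT PGCLC. Against a floor of 3 reads over the EpiLC pair (0.0548 TPM), Kdr was at least 27.1-fold higher in PGCLC, and the fitted difference was 1.33 ± 0.22 (adjusted p = 2.20e-06). Etv2 was at 1.38 and 0 TPM in ESC, 3.34 and 4.93 TPM in EpiLC and 8.84 and 5.10 TPM in PGCLC. Its rise to EpiLC was 1.72 ± 0.47 (adjusted p = 0.00206), while the step to PGCLC, 0.61 ± 0.47, did not pass (adjusted p = 0.265). Cxcr4 was at 3.60 and 2.30 TPM in ESC, 0.321 and 1.06 TPM in EpiLC and 1.86 and 0.694 TPM in PGCLC. It fell by 1.24 ± 0.25 from ESC to EpiLC (adjusted p = 6.86e-05) and the difference at the PGCLC step was 0.42 ± 0.25 (adjusted p = 0.155).

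At the EpiLC step 3 of the 6 genes rose and 2 fell, where 20.6% of all tested genes were called. At the PGCLC step 1 rose and 2 fell, where 21.1% were called. Between WT PGCLC and ESC, where 25.3% were called, Kdr (1.20 ± 0.22), Etv2 (2.33 ± 0.47) and Lmo2 (2.50 ± 0.26) were higher and Pecam1 was lower by 4.77 ± 0.24 log2 units. Single libraries carry part of this. The EpiLC rises, without replicate 2 of WT ESC, of Tal1 (0.93) and Etv2 (1.09, adjusted p = 0.0945) were not called, and without replicate 1 of WT EpiLC or of WT ESC the fall of Cxcr4 was 0.92 or 1.0 in size and not called. Without replicate 1 of WT PGCLC the Kdr difference from ESC was 0.97, with quantile normalization it was 0.85, and in neither was it called. Cxcr4 was at -0.82 ± 0.25 between WT PGCLC and ESC, under the fold threshold. It was called with 0.1 added to the TPM (-1.26), with quantile normalization (-1.03), by limma-voom (-1.55), without replicate 1 of WT PGCLC (-1.20) and without replicate 2 of WT ESC (-1.06).

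In ESC none of the line differences reached the threshold. By limma 0 of 6 were called in any of the 8 lines against WT, where 0.541% of tested genes were called in Ovol1KO, 3.36% in Ovol2KO, 1.85% in Ovol3KO, 4.08% in TKO, 4.95% in Ovol2a-Tg, 5.56% in Ovol2b-Tg, 4.31% in Ovol2a/2b-Tg and 6.40% in Cdh1-Tg. At an unadjusted p under 0.05 there were 0 to 3 of the 6 per line, and limma-voom on the recovered reads called 1 gene, Kdr, in Cdh1-Tg. Pecam1 had an adjusted p of 3.81e-05 in Cdh1-Tg (-0.83 ± 0.10) and of 0.000527 in Ovol2KO (-0.67 ± 0.10), both under the fold threshold. Etv2 reached 1.05 ± 0.53 in Cdh1-Tg but did not pass (adjusted p = 0.173). Without replicate 1 of WT ESC, Lmo2 in Ovol3KO was called at -1.07. Pecam1 stayed between 45.8 and 98.0 TPM over all 18 ESC libraries, Kdr did not exceed 0.716 TPM and Tal1 did not exceed 0.407 TPM. With 1 added to the TPM, such values cannot differ by 1 on the log2 scale. Kdr and Tal1 could thus not be called in ESC on that scale, so their part in the 0 of 6 was set by their level.

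In EpiLC the line differences were those of Pecam1 and, in 1 line, Cxcr4. Pecam1 was at 5.92 and 6.46 TPM in Ovol2KO-labelled EpiLC, 5.75 and 5.73 TPM in TKO-labelled EpiLC and 1.64 and 1.88 TPM in Cdh1-Tg EpiLC, all below the WT pair. It was lower than WT by 1.06 ± 0.16 log2 units in Ovol2KO (adjusted p = 5.00e-04), 1.16 ± 0.16 in TKO (adjusted p = 0.000117) and 2.45 ± 0.16 in Cdh1-Tg (adjusted p = 1.75e-08). Cxcr4 was higher in Cdh1-Tg EpiLC, at 2.70 and 2.86 TPM, by 1.20 ± 0.22 (adjusted p = 0.000439). These are 1 of 6 genes lower in Ovol2KO and TKO, where 0.853% and 0.832% of tested genes were lower, and 1 higher and 1 lower in Cdh1-Tg, where 3.62% and 2.76% were. In the other 5 lines limma called 0 of 6, with 0 to 3 at an unadjusted p under 0.05 and 0 by limma-voom, where 0.486% of tested genes were called in Ovol1KO, 2.85% in Ovol3KO, 4.50% in Ovol2a/2b-Tg, 2.06% in Ovol2a-Tg and 1.67% in Ovol2b-Tg. Without replicate 2 of WT EpiLC the Pecam1 difference in Ovol2KO was 0.92 in size, and without replicate 1 of WT EpiLC the Cxcr4 difference in Cdh1-Tg was 0.88, neither of them called. In the EpiLC of the line labelled Ovol3KO, Etv2, Cxcr4 and Pecam1 had adjusted p of 0.017, 0.0125 and 0.000298 with differences of 0.80, 0.78 and 0.96, under the fold threshold. All of these 3, without replicate 2 of WT EpiLC, were called (1.03, 1.1 and 1.1), and without replicate 2 of Ovol3KO EpiLC Etv2 (1.01) and Pecam1 (1.13) were. Tal1 ranged from 0.966 to 3.48 TPM over the 18 EpiLC libraries and was highest in Cdh1-Tg, at 3.48 and 3.26 TPM. Kdr did not exceed 0.227 TPM in EpiLC, so it could not differ by 1 in log2(TPM + 1) and could not be called there.

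Day 2 PGCLC are where the lines parted. Against WT PGCLC, 5 of the 6 genes were higher in the TKO-labelled line, where 5.58% of tested genes were higher. In Ovol2b-Tg 4 of 6 were higher (5.16% of tested genes), and in Cdh1-Tg (5.56%), Ovol2a/2b-Tg (4.68%), the Ovol2KO-labelled line (4.11%) and Ovol2a-Tg (2.09%) 2 of 6 were. The Ovol1KO-labelled line had 1 higher (0.493%), and the Ovol3KO-labelled line had 1 higher (4.34%) and 2 lower (8.50%). The 6 genes were chosen with earlier results of these data known, so the shares are for scale and test nothing. The 8 comparisons share the 2 WT libraries, which held 5.22 and 6.94 M reads. The summed level of 7 fibroblast or feeder genes (Col1a1, Col1a2, Thy1, Pdgfrb, Dcn, Lum and Postn) was 36.5 and 28.6 TPM in WT PGCLC, 321 and 328 TPM in TKO, 305 and 323 TPM in Cdh1-Tg, 271 and 219 TPM in Ovol2b-Tg and 147 and 155 TPM in Ovol2KO. It was 160 and 150 TPM in Ovol2a/2b-Tg, 103 and 184 TPM in Ovol2a-Tg, 23.2 and 39.6 TPM in Ovol1KO and 10.4 and 10.6 TPM in Ovol3KO. Its high lines were those with Cxcr4 called. Dcn was at 0 in both libraries of TKO and Ovol2KO, where the other markers were detected. In the 4 transgenic lines no marker was at 0 in both libraries, and in WT Lum and Postn were. The part of this sum in the results was not tested.

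**Figure D2:**
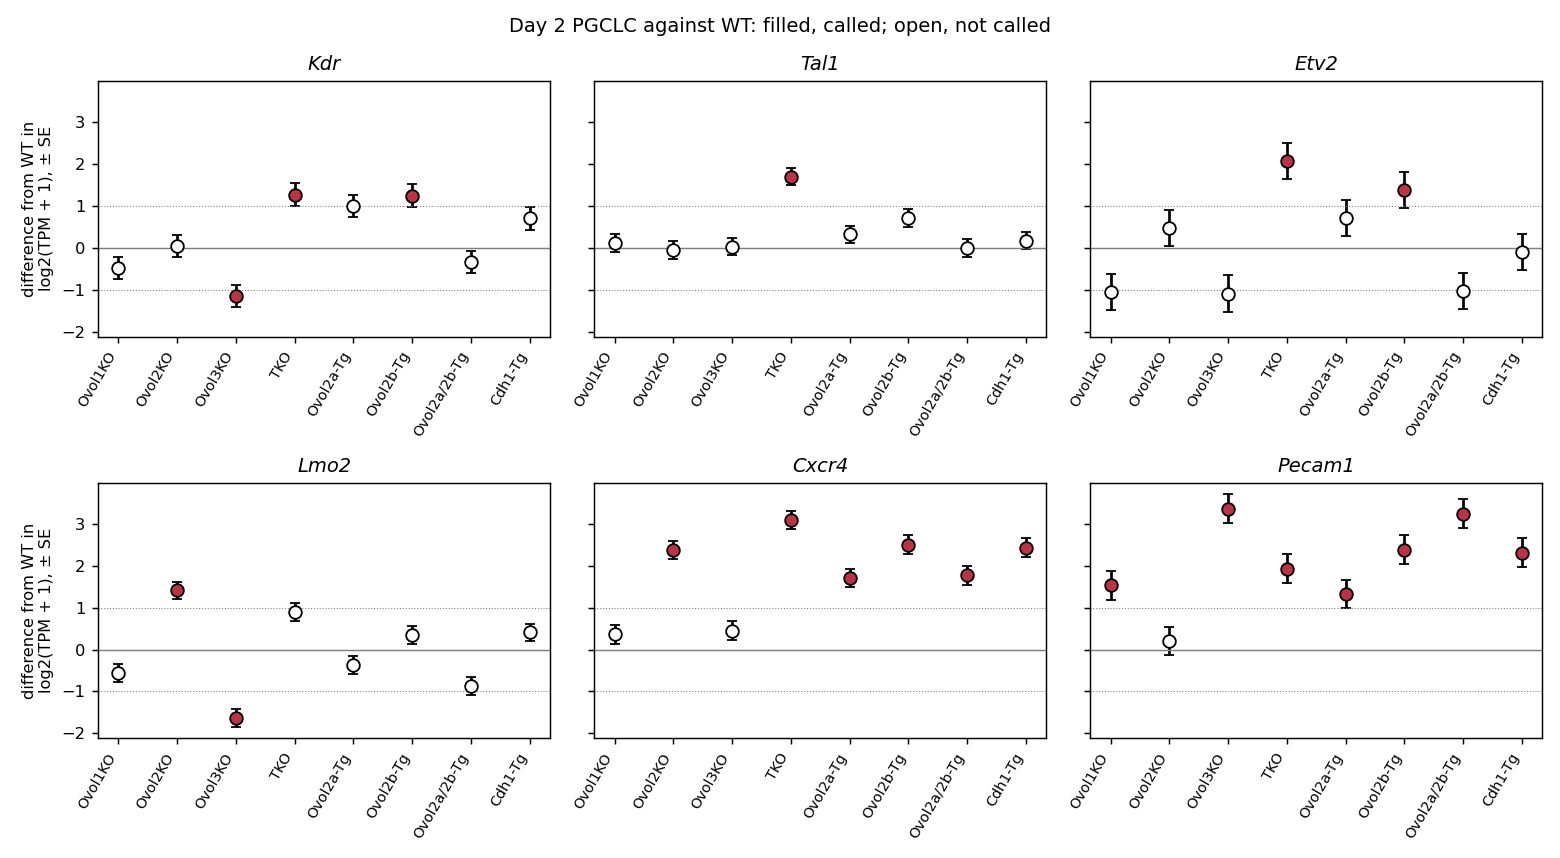
Difference from WT in day 2 PGCLC on the log2(TPM + 1) scale (y axis) for 8 lines (x axis), with SE bars from a fit of 18 libraries. Filled points were called, open points were not, and dotted lines mark a difference of 1. Cxcr4 was called higher in 6 of 8 lines, Pecam1 in 7 of 8 and Tal1 in 1 of 8.

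Kdr, the VEGF receptor, was highest in TKO-labelled PGCLC, at 3.84 and 6.61 TPM. Ovol2b-Tg followed at 4.16 and 5.85 TPM, Ovol2a-Tg at 3.83 and 4.22 TPM and Cdh1-Tg at 3.04 and 3.11 TPM. These 4 lines stood above both WT libraries (1.93 and 1.15 TPM), while the Ovol2KO-labelled pair (1.21 and 2.03 TPM) overlapped WT. At the low end the Ovol3KO-labelled pair had 0.110 and 0.149 TPM, which was 5 reads and 1 read. Kdr was higher than WT in TKO by 1.27 ± 0.27 (adjusted p = 0.00166) and in Ovol2b-Tg by 1.24 ± 0.27 (adjusted p = 0.00245), and lower in Ovol3KO by 1.15 ± 0.27 log2 units (adjusted p = 0.00244). In Ovol2a-Tg the difference of 1.0 ± 0.27 (adjusted p = 0.019) fell just short of the fold threshold. In TKO the difference was 0.94 without replicate 2 of that line, without replicate 1 of WT that of Ovol3KO was 0.93 in size, and neither was called. Without replicate 1 of WT that of Ovol2a-Tg was 1.22 and called.

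Cxcr4, the CXCL12 receptor, gave the largest difference of the 6 genes between TKO-labelled and WT PGCLC on the log2(TPM + 1) scale. It was at 19.6 and 16.0 TPM there, against 1.86 and 0.694 TPM in WT, a difference of 3.09 ± 0.22 (adjusted p = 9.09e-08). With 0.1 added to the TPM or by limma-voom the Tal1 difference was larger, 4.22 and 5.16 against 3.84 and 3.79 for Cxcr4, on 1 Tal1 read in WT. Ovol2b-Tg (11.6 and 11.4 TPM), Cdh1-Tg (10.9 and 10.9 TPM) and the Ovol2KO-labelled line (9.11 and 11.8 TPM) came next, and the spread of the Ovol2KO-labelled pair covers the other 2. Ovol2a/2b-Tg (6.24 and 6.77 TPM) and Ovol2a-Tg (6.00 and 6.44 TPM) followed and overlap each other. The differences from WT were 2.50 ± 0.22 in Ovol2b-Tg, 2.43 ± 0.22 in Cdh1-Tg, 2.37 ± 0.22 in Ovol2KO, 1.77 ± 0.22 in Ovol2a/2b-Tg and 1.71 ± 0.22 in Ovol2a-Tg, with adjusted p from 8.19e-07 to 9.67e-05. The lines labelled Ovol3KO (1.79 and 2.24 TPM) and Ovol1KO (1.52 and 2.16 TPM) overlapped WT. All 6 Cxcr4 calls held without each library in turn, but they share a WT pair with 8 and 4 Cxcr4 reads.

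Etv2, the ETS factor, was at 28.1 and 35.2 TPM in TKO-labelled PGCLC, the highest Etv2 libraries of all 54. Ovol2b-Tg had 21.4 and 17.0 TPM, Ovol2a-Tg 10.7 and 12.7 TPM and the Ovol2KO-labelled line 9.67 and 9.76 TPM, against 8.84 and 5.10 TPM in WT. None of these 4 lines overlapped WT. The difference from WT was 2.07 ± 0.43 in TKO (adjusted p = 0.00187) and 1.37 ± 0.43 in Ovol2b-Tg (adjusted p = 0.0279), while 0.71 ± 0.43 in Ovol2a-Tg and 0.47 ± 0.43 in Ovol2KO did not pass. The Ovol2b-Tg call was lost without replicate 1 (1.21, adjusted p = 0.126) or replicate 2 (1.53, adjusted p = 0.0663) of that line or without replicate 2 of WT (1.03, adjusted p = 0.198). It was also lost with 0.1 added to the TPM (adjusted p = 0.0844), with no filter (0.063) and without 3 transgenic lines in the fit (0.0592). Ovol3KO (2.99 and 2.33 TPM) and Ovol2a/2b-Tg (2.26 and 3.49 TPM) lay below both WT libraries, with differences of -1.09 ± 0.43 (adjusted p = 0.0534) and -1.02 ± 0.43 (adjusted p = 0.0858) that did not pass. The Ovol3KO value without replicate 2 of WT was -1.43 (adjusted p = 0.0458) and called. The Ovol1KO-labelled pair was split, at 0.876 TPM (1 read) and 6.36 TPM, and without its replicate 2 the fall was called, at -2.05 (adjusted p = 0.000878).

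Tal1, the basic helix-loop-helix factor, was highest among PGCLC in the TKO-labelled line. It was at 1.81 TPM (10 reads) and 3.04 TPM in that line and at 0.531 and 0.877 TPM in Ovol2b-Tg. No other PGCLC library passed 0.397 TPM, and the Ovol2KO-labelled pair had no Tal1 read. The difference from WT was 1.70 ± 0.21 in TKO (adjusted p = 1.63e-05), and 0.71 ± 0.21 in Ovol2b-Tg (adjusted p = 0.0187) was under the fold threshold. With 0.1 added to the TPM in place of 1, or by limma-voom, Ovol2b-Tg was called as well.

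Lmo2, the adaptor of TAL1, had another order. It was highest in the Ovol2KO-labelled line, at 23.7 and 25.6 TPM, then in the TKO-labelled line at 14.3 and 19.9 TPM, and WT had 8.87 and 8.44 TPM. Neither line overlapped WT, and only Ovol2KO was called, with 1.41 ± 0.21 (adjusted p = 0.000143) against 0.89 ± 0.21 in TKO (adjusted p = 0.00383, under the fold threshold). Without replicate 1 of TKO the latter was 1.12 and called. Ovol3KO-labelled PGCLC had 2.60 and 1.71 TPM, lower than WT by 1.63 ± 0.21 log2 units (adjusted p = 1.62e-05), and Ovol2a/2b-Tg had 4.71 and 3.85 TPM, lower by 0.87 ± 0.21, which is under the threshold (adjusted p = 0.00454).

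Pecam1, the adhesion gene, had its lowest PGCLC mean in WT and was called higher in the Ovol3KO-labelled line, where Kdr and Lmo2 were called lower. There it was at 25.5 and 37.8 TPM, and in Ovol2a/2b-Tg at 26.9 and 30.2 TPM, against 1.90 and 2.36 TPM in WT. The differences of 3.36 ± 0.34 (adjusted p = 1.96e-06) and 3.24 ± 0.34 (adjusted p = 5.67e-06) were the 2 largest of Pecam1. Ovol2b-Tg (19.1 and 12.1 TPM), Cdh1-Tg (16.3 and 12.8 TPM) and the TKO-labelled line (10.2 and 11.5 TPM) lay between. Their differences were 2.38 ± 0.34 (adjusted p = 0.000102), 2.31 ± 0.34 (adjusted p = 9.39e-05) and 1.93 ± 0.34 (adjusted p = 0.000473). Ovol2a-Tg (5.30 and 8.59 TPM) was called at 1.32 ± 0.34 (adjusted p = 0.0168), and this call was lost without its replicate 2 (1.01, adjusted p = 0.198) and without replicate 1 (1.21) or 2 (1.42) of WT and by limma-voom (1.64, adjusted p = 0.107). Ovol1KO was called at 1.53 ± 0.34 (adjusted p = 0.0331) on libraries at 13.0 and 4.82 TPM, the shallower of them the higher. That call was lost without its replicate 1 (0.90, adjusted p = 0.33) and without replicate 1 (1.42) or 2 (1.64) of WT. Only the Ovol2KO-labelled line, at 3.24 and 2.05 TPM, overlapped WT, with a difference of 0.20 ± 0.34 that did not pass.

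Set against each other, the TKO-labelled line had 4 of the 6 genes higher than the Ovol2KO-labelled line, where 0.714% of tested genes were higher. Tal1 differed by 1.75 ± 0.21 (adjusted p = 0.000151), at least 22.8-fold against a floor of 3 reads over the Ovol2KO pair (0.123 TPM). Pecam1 differed by 1.72 ± 0.34 (adjusted p = 0.00861), Etv2 by 1.60 ± 0.43 (adjusted p = 0.0454) and Kdr by 1.23 ± 0.27 (adjusted p = 0.0139). Cxcr4 (0.72 ± 0.22, adjusted p = 0.0703) and Lmo2 (-0.52 ± 0.21, adjusted p = 0.173) did not pass. Tal1 was the call that held without each library in turn. Without replicate 2 of TKO it was alone, as Etv2 (1.44), Kdr (0.90) and Pecam1 (1.64) were lost. Etv2 was also lost without replicate 1 of TKO (1.76) and without replicate 1 (1.59) or 2 (1.61) of Ovol2KO, Kdr without replicate 1 of Ovol2KO (1.0) and Pecam1 without replicate 2 of Ovol2KO (1.48). In a fit of the 4 libraries alone 2 of the 6 were called, Tal1 (adjusted p = 0.0548) and Kdr (0.153) being lost. Etv2 was lost with 0.1 added to the TPM (adjusted p = 0.135) and with no filter (0.0956), and Pecam1 by limma-voom (0.102).

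Against the TKO-labelled line, the number of the 6 genes called in PGCLC varied by transgenic line. The transgenic lines were not tested against each other. In Ovol2a/2b-Tg 5 of 6 genes were lower (4.04% of tested genes) and Pecam1 was higher (4.33%). On the log2(TPM + 1) scale these differences were -3.08 ± 0.43 for Etv2 (adjusted p = 8.55e-05), followed by Lmo2 at -1.76 ± 0.21 (adjusted p = 1.57e-05), Tal1 at -1.71 ± 0.21 (adjusted p = 2.08e-05), Kdr at -1.62 ± 0.27 (adjusted p = 0.000269) and Cxcr4 at -1.32 ± 0.22 (adjusted p = 3.00e-04). By limma-voom Tal1 had -5.72 and Etv2 -3.54, so that order depends on the 1 added to the TPM. Pecam1 was 1.32 ± 0.34 higher (adjusted p = 0.00733), a call lost without replicate 2 of Ovol2a/2b-Tg (1.24, adjusted p = 0.0535). In Ovol2a-Tg 4 of 6 were lower (1.41%): Tal1 and Cxcr4, at -1.38 ± 0.21 (adjusted p = 0.000571) and -1.38 ± 0.22 (adjusted p = 0.000853), Lmo2 at -1.25 ± 0.21 (adjusted p = 0.0011) and Etv2 at -1.36 ± 0.43 (adjusted p = 0.048). The Etv2 call was lost without replicate 1 (-1.25) or 2 (-1.47) of Ovol2a-Tg and without replicate 1 (-1.52) or 2 (-1.20) of TKO, and also with 0.1 added to the TPM (adjusted p = 0.145) and with no filter (0.101). In Cdh1-Tg 2 of 6 were lower (1.30%), Etv2 at -2.18 ± 0.43 (adjusted p = 0.00321) and Tal1 at -1.53 ± 0.21 (adjusted p = 0.000186).

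Between Ovol2b-Tg and the TKO-labelled line limma called 0 of 6 genes, where 0.354% of tested genes were called. At an unadjusted p under 0.05 there were 3 (Tal1, Lmo2 and Cxcr4), and limma-voom called 1. Tal1 was at -0.99 ± 0.21 (adjusted p = 0.0363), just inside the fold threshold, and without replicate 1 of TKO it was called at -1.25. The order of Ovol2 mRNA in the 3 Ovol2 transgenic PGCLC, from Ovol2b-Tg (345 and 296 TPM) through Ovol2a-Tg (900 and 867 TPM) to Ovol2a/2b-Tg (3400 and 3190 TPM), was the reverse of the order of their mean Kdr, Tal1, Etv2 and Lmo2 but not of Cxcr4 or Pecam1. With 3 lines that differ in isoform as well as level, this order was not tested.

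**Figure D3:**
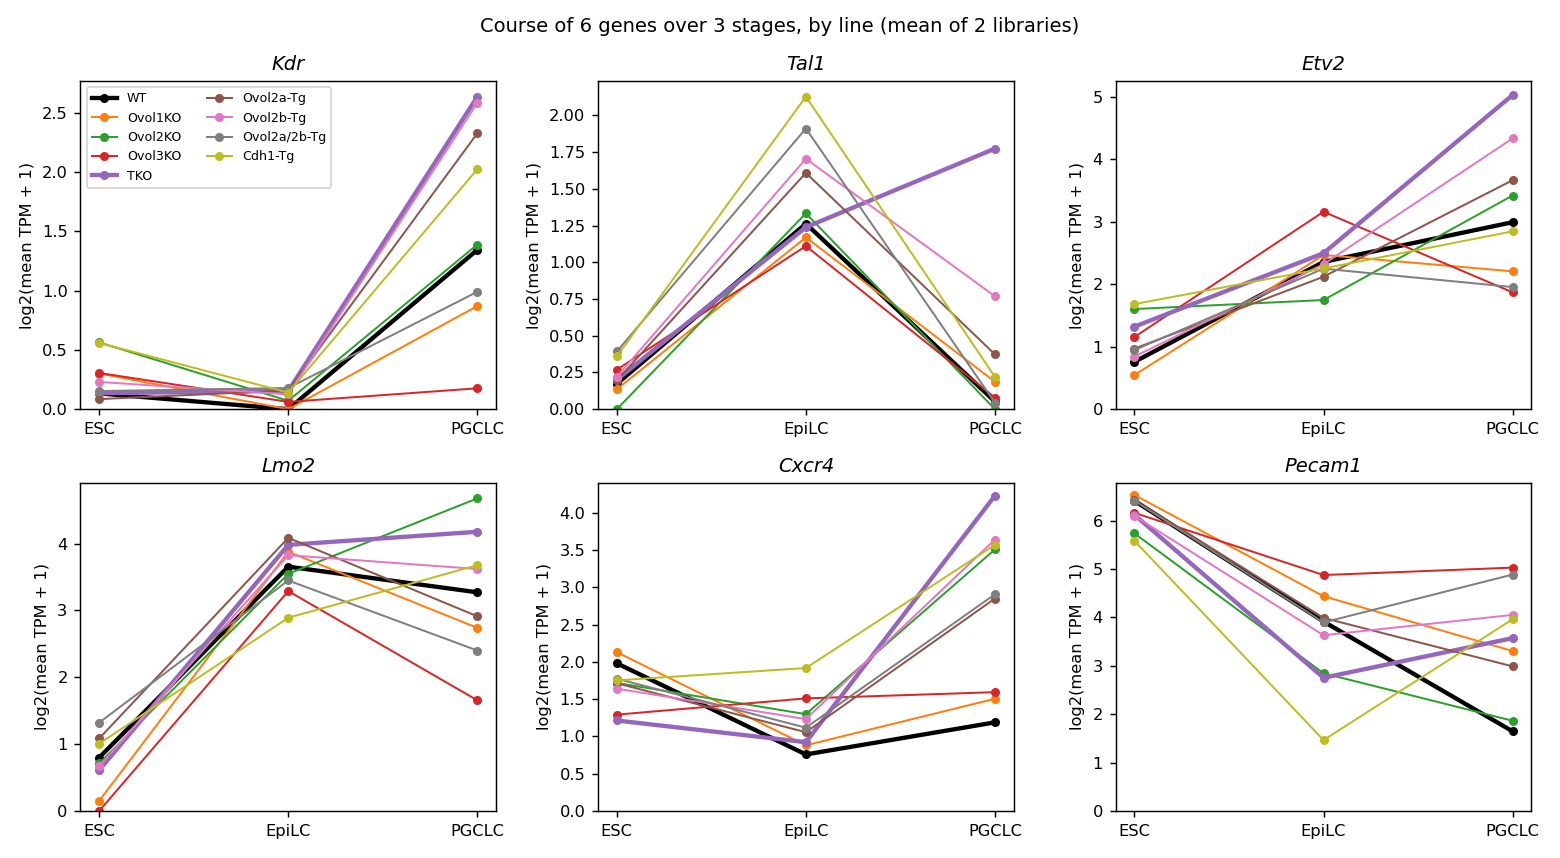
Group mean level on the log2(TPM + 1) scale (y axis) at ESC, EpiLC and PGCLC (x axis), 1 line per cell line, mean of 2 libraries. Mean Tal1 was lower in PGCLC than in EpiLC in every line but the TKO-labelled one, and Cxcr4 and Kdr rose in TKO, Ovol2KO, Ovol2a-Tg, Ovol2b-Tg and Cdh1-Tg.

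From EpiLC to PGCLC, Kdr rose in 6 of 9 lines. The exceptions were Ovol1KO and Ovol2a/2b-Tg, with differences of 0.85 and 0.81 under the fold threshold (1.11 and called in Ovol1KO without replicate 1 of its PGCLC), and Ovol3KO, with 0.12 ± 0.22. The rises of TKO and Ovol2b-Tg were 2.45 ± 0.22 each, against 1.33 ± 0.22 in WT. Cxcr4 rose in 6 of 9 lines as well, by 3.31 ± 0.25 in TKO (adjusted p = 7.36e-14) and by 1.65 to 2.41 in the Ovol2KO-labelled and the 4 transgenic lines, and it did not pass in WT, Ovol1KO and Ovol3KO. Etv2 rose in 4 lines, by 2.53 ± 0.47 in TKO, 2.01 ± 0.47 in Ovol2b-Tg, 1.71 ± 0.47 in Ovol2KO and 1.54 ± 0.47 in Ovol2a-Tg, and fell by 1.28 ± 0.47 in Ovol3KO. In Ovol1KO, Etv2 was called at -1.55 without replicate 2 of its PGCLC. The Etv2 fall was lost without replicate 2 of Ovol3KO PGCLC or replicate 1 of Ovol3KO EpiLC, at -1.15 and -1.07. With 0.1 added to the TPM that of TKO was the one of these 5 Etv2 steps still called, with adjusted p of 0.0606 in Ovol2b-Tg, 0.0811 in Ovol2KO, 0.148 in Ovol2a-Tg and 0.225 in Ovol3KO.

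Tal1 fell in 6 of 9 lines, with -1.91 ± 0.21 in Cdh1-Tg and -1.87 ± 0.21 in Ovol2a/2b-Tg. By limma-voom these 2 had -4.40 and -5.89. The fall was not called in Ovol3KO without replicate 2 of its PGCLC (-0.95) or replicate 1 of its EpiLC (-0.90), nor in Ovol2a-Tg without replicate 2 of its EpiLC (-0.89). Values of -0.99 in Ovol1KO and -0.92 in Ovol2b-Tg were inside the threshold. Ovol1KO was called without replicate 2 of its PGCLC (-1.17) or of its EpiLC (-1.06), and Ovol2b-Tg without replicate 2 of its PGCLC (-1.07) or 1 of its EpiLC libraries (-1.18). The TKO-labelled line alone had a positive value, 0.53 ± 0.21 (adjusted p = 0.0237, under the threshold). The test of the difference itself gave 1.74 ± 0.29 for TKO against the WT step (adjusted p = 2.54e-05). In the Ovol2KO-labelled line Tal1 went from 1.5 and 1.55 TPM in EpiLC to no read in PGCLC, at least 12.3-fold lower against the floor of 3 reads. Lmo2 fell in Ovol1KO, Ovol3KO, Ovol2a-Tg and Ovol2a/2b-Tg, by 1.03 to 1.65, and rose in Ovol2KO by 1.22 ± 0.26. That rise was 0.70 and not called without replicate 2 of Ovol2KO EpiLC, nor was it with quantile normalization (0.97) or by limma-voom (0.82). The falls were not called in Ovol1KO without replicate 1 of its PGCLC (-0.86) or EpiLC (-0.96), nor in Ovol2a/2b-Tg without replicate 2 of its PGCLC (-0.91) or EpiLC (-0.75). Pecam1 fell in WT, Ovol1KO and Ovol2a-Tg and rose in Cdh1-Tg, by 2.49 ± 0.24 from its low EpiLC level (adjusted p = 5.74e-11). The Pecam1 fall was not called without replicate 2 of Ovol1KO PGCLC (-0.62), nor in Ovol2a-Tg without replicate 1 of its PGCLC (-0.72) or EpiLC (-0.93). In Ovol2KO and Ovol2a/2b-Tg, where Pecam1 differed by -1.0 and 0.99 just inside the threshold, it was called without replicate 1 of PGCLC (-1.24 and 1.07) or of EpiLC (-1.05 and 1.01).

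Of the 6 genes at this step, TKO had 3 higher and none lower, where 24.5% of tested genes were called in either direction. Ovol2b-Tg also had 3 higher (23.8%), Ovol2KO 4 higher and 1 lower (24.3%), Cdh1-Tg 3 higher and 1 lower (22.9%) and Ovol2a-Tg 3 higher and 3 lower (19.8%). Ovol2a/2b-Tg had 1 higher and 2 lower (24.2%), Ovol1KO 2 lower (17.2%) and Ovol3KO 3 lower (12.8%).

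Tested directly, the difference of a line from WT was not the same in PGCLC and EpiLC for 5 of the 6 genes in TKO (9.41% of tested genes), 4 in Ovol3KO (16.1%), 3 in Ovol2KO (7.71%), Ovol2b-Tg (7.60%) and Cdh1-Tg (9.61%), 2 in Ovol2a-Tg (3.01%) and Ovol2a/2b-Tg (7.07%) and 0 in Ovol1KO (0.576%). Kdr was among these genes in TKO, Ovol3KO and Ovol2b-Tg. Its low EpiLC level kept any difference from WT near 0 there, so these Kdr values mostly restate those of PGCLC. By limma-voom the Kdr value in TKO had the other sign. In Ovol1KO 2 of 6 had an unadjusted p under 0.05 and limma-voom called 0. Leaving out 1 library at a time gave 3 to 5 in TKO, 2 to 4 in Ovol3KO, 1 to 3 in Cdh1-Tg, 0 to 2 in Ovol2a-Tg and Ovol1KO and 1 to 2 in Ovol2a/2b-Tg.

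Partners of these proteins differed between the PGCLC lines as well. The lists held 68 other genes of the VEGF and CXCL12 pathways, the TAL1-LMO2 complex, endothelium and blood, of which 49 were tested. They were chosen with earlier results of these data known, so the shares over all tested genes are given for scale and test nothing. In TKO-labelled PGCLC 13 of the 49 were higher and 1 lower than in WT, where 5.58% and 4.95% of all tested genes were, with a median difference of 0.37 against 0.03 for all tested genes. In Ovol2b-Tg 11 were higher and 1 lower (5.16% and 3.14% of tested genes), with a median of 0.32. In Ovol2KO 9 were higher and 2 lower (4.11% and 4.07%), with a median of 0.21, and in Cdh1-Tg 9 and 2 (5.56% and 4.30%), with 0.26. In Ovol2a/2b-Tg 8 were higher and 3 lower (4.68% and 2.95%), with a median of 0.26, and in Ovol2a-Tg 6 and 0, where 2.09% of tested genes were higher, with 0.29. In Ovol3KO 4 were higher and 6 lower (4.34% and 8.50%), with a median of -0.11 where all tested genes had -0.12. In Ovol1KO 0 were higher and 0 lower, where 0.493% of tested genes were higher, with a median of 0.08.

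**Figure D4:**
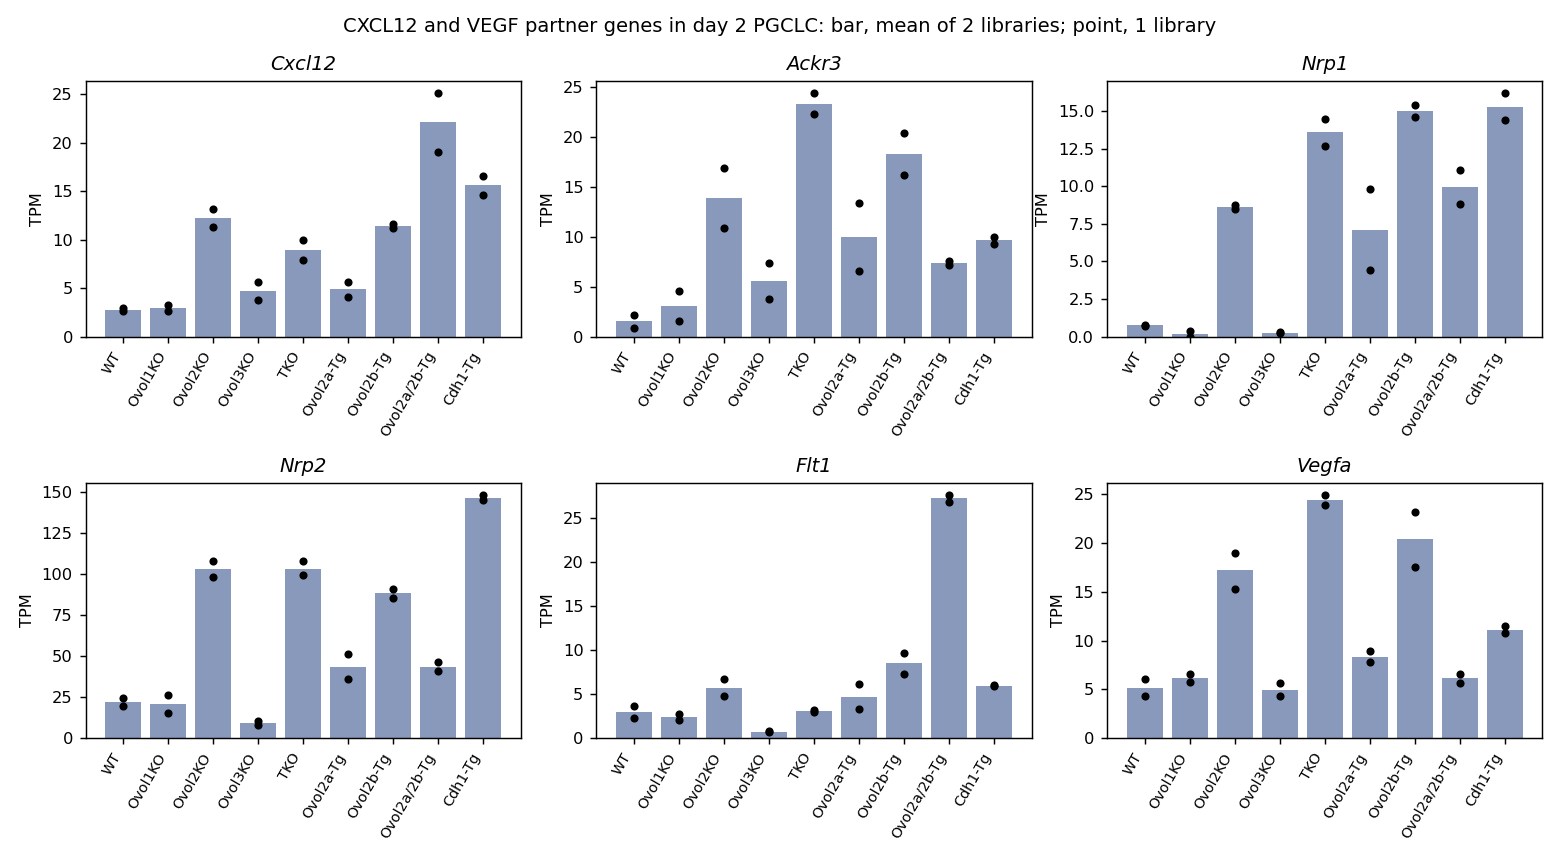
TPM (y axis, linear, own scale per gene) of Cxcl12, Ackr3, Nrp1, Nrp2, Flt1 and Vegfa in day 2 PGCLC of 9 lines (x axis). Bars are means of 2 libraries and points are single libraries. Ackr3 was highest in TKO-labelled PGCLC, Cxcl12 and Flt1 in Ovol2a/2b-Tg, and Nrp2 in Cdh1-Tg.

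Both CXCL12 partners of CXCR4 rose with it in 5 lines. Ackr3, which encodes a scavenging receptor of CXCL12, was at 24.4 and 22.3 TPM in TKO-labelled PGCLC against 0.908 and 2.17 TPM in WT, a difference of 3.31 ± 0.38 (adjusted p = 8.83e-06). Cxcl12, the ligand, was at 9.95 and 7.87 TPM in TKO against 2.94 and 2.64 TPM in WT (1.38 ± 0.20, adjusted p = 7.34e-05). It was highest in Ovol2a/2b-Tg, at 19.0 and 25.1 TPM (2.59 ± 0.20, adjusted p = 2.93e-07), a line in which Cxcr4 was lower than in TKO. Ackr3 was also called in Ovol3KO (1.36 ± 0.38, adjusted p = 0.00837), where Cxcr4 was not.

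The neuropilins, co-receptors of VEGF, rose in most lines with high Cxcr4. Nrp1 was at 12.7 and 14.5 TPM in TKO, 14.6 and 15.4 TPM in Ovol2b-Tg and 16.2 and 14.4 TPM in Cdh1-Tg, against 0.712 and 0.797 TPM in WT. No library of those 3 lines came near WT, and the differences were 3.05 ± 0.26, 3.19 ± 0.26 and 3.21 ± 0.26. Nrp2 went from 24.3 and 19.9 TPM in WT to 108 and 99.0 TPM in TKO (2.18 ± 0.20) and 148 and 145 TPM in Cdh1-Tg (2.68 ± 0.20), and was lower in Ovol3KO by 1.19 ± 0.20 log2 units (adjusted p = 0.000261). Plxnd1, the semaphorin receptor of vessels, rose by 2.31 ± 0.19 in TKO and 1.39 ± 0.19 to 2.12 ± 0.19 in Ovol2KO and the 4 transgenic lines. Vegfa, the ligand of KDR, rose by 2.05 ± 0.18 in TKO, 1.79 ± 0.18 in Ovol2b-Tg and 1.56 ± 0.18 in Ovol2KO. Flt1, the decoy receptor of VEGF-A, had another order: 27.6 and 26.8 TPM in Ovol2a/2b-Tg against 3.62 and 2.30 TPM in WT (2.85 ± 0.24, adjusted p = 7.29e-07), and 3.21 and 3.0 TPM in TKO (0.07 ± 0.24, not called).

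In the VEGF list 5 of 10 genes were higher in TKO than in WT and none lower (median 0.88), where 5.58% and 4.95% of tested genes were. In Ovol3KO none of the 10 was higher and 3 were lower (median -0.70), where 8.50% of tested genes were lower. In the endothelial list 5 of 20 tested genes were higher in TKO (median 0.38), Eng, a TGF-beta co-receptor of vessels, among them at 43.1 and 45.1 TPM against 7.90 and 7.04 TPM (2.41 ± 0.14, adjusted p = 1.45e-08). Ets1, an ETS factor, was lower in Ovol3KO by 3.04 ± 0.17 log2 units, at 2.14 and 2.25 TPM against 27.6 and 23.3 TPM in WT, while Esam (2.12 ± 0.27) and Plvap (1.61 ± 0.32), both endothelial, were higher there. In the blood list 1 of 9 tested genes was called in TKO, and it was lower: Myb, a factor of blood progenitors, at 0 and 0.0968 TPM against 3.68 and 3.16 TPM (-2.08 ± 0.28, adjusted p = 3.58e-05). Of the 8 tested TAL1-LMO2 partners 1 was higher in TKO. In both of these short lists a single call is near the share over all tested genes, 4.95% lower and 5.58% higher. In WT the PGCLC step brought rises of Gata2, the GATA partner, from 0.719 and 0.222 to 19.5 and 14.5 TPM (3.62 ± 0.28), of Ets1 (3.28 ± 0.20) and of Nrp2 (4.39 ± 0.19), and falls of Myb (-3.35 ± 0.19), Vegfa (-2.45 ± 0.18) and Ramp2 (-2.19 ± 0.30).

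The listed markers of endothelium and blood were low in PGCLC of every line. The endothelial markers Cdh5, Tek, Tie1, Emcn and Esam summed to 3.27 and 2.66 TPM in TKO-labelled PGCLC, 1.37 and 1.53 TPM in WT PGCLC and 6.26 and 7.79 TPM in Ovol3KO-labelled PGCLC. This sum was higher in ESC, with a median of 11.5 TPM over the ESC libraries against 3.34 TPM over those of PGCLC. Its level is thus no measure of endothelium alone. Emcn was at 0 in all 27 groups, and Tie1 was at 0 in WT PGCLC but not in TKO-labelled PGCLC. The blood markers Gata1, Klf1, Itga2b, Hbb-bh1, Hba-x and Ptprc summed to at most 2.07 TPM over the 18 PGCLC libraries, with Hba-x at 0 in all 27 groups of the 3 stages. Gata1, Hbb-bh1, Hba-x and Ptprc were at 0 in both libraries of TKO-labelled PGCLC, and the same genes were at 0 in WT PGCLC. Of 9 mesoderm genes (T, Mixl1, Eomes, Mesp1, Foxf1, Hand1, Pdgfra, Gata4 and Bmp4) 9 rose from EpiLC to PGCLC in WT, where 21.1% of tested genes were called. In TKO 5 of them were higher and 2 lower than in WT PGCLC (5.58% and 4.95% of tested genes), and in Ovol3KO 7 were lower (8.50%).

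Over the 9 PGCLC line means the strongest likeness among the 6 genes was between Kdr and Etv2 (Pearson r = 0.89), then Tal1 and Etv2 (0.81), Kdr and Cxcr4 (0.74) and Etv2 and Lmo2 (0.72). Pecam1 had r from -0.59 (with Lmo2) to 0.15 (with Cxcr4). Kdr and Tal1 had r = 0.69 over the 9 PGCLC line means and r = -0.14 over all 27 group means. Among all tested genes the pattern most like Kdr over the 27 groups was that of Asb4 (r = 0.971), then Bace2 (0.97) and Klhl6 (0.962). For Cxcr4 these were Mylk (0.942), Acvrl1 (0.937) and Hoxd4 (0.929), for Lmo2 Mfsd2a (0.949), Lrrc27 (0.947) and Lrp8 (0.939), and for Pecam1 Plet1 (0.924), Ncoa3 (0.918) and Osbpl1a (0.907). Etv2 was most like Hdgf (0.899), Wdr54 (0.894) and Stra6 (0.893), and Tal1 most like Adamts19 (0.873) and Irs4 (0.868). These correlations describe group means that share stages, lines and library depth, with no test.

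Ordered over all 27 groups, neighbouring groups mostly overlap in their libraries. Of the 26 neighbouring pairs in each order, 23 overlapped for Kdr and for Tal1, 22 for Cxcr4, 21 for Etv2, 20 for Lmo2 and 17 for Pecam1. Tal1 ranked highest in Cdh1-Tg EpiLC (mean 3.37 TPM), Lmo2 in Ovol2KO-labelled PGCLC (24.6 TPM), Pecam1 in Ovol1KO-labelled ESC (91.6 TPM), and Kdr (5.22 TPM), Etv2 (31.7 TPM) and Cxcr4 (17.8 TPM) in TKO-labelled PGCLC. Kdr was without a read in 11 of 54 libraries and Tal1 in 11, so a value near 0 for either rests on few reads and lower levels were not detectable at this depth.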

How the data were processed

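mRNA of 54 libraries (27 groups of 2) was sequenced by the authors, who deposited 1 table of TPM in which each library sums to 1e+06. The submitters' processing notes name HISAT2, featureCounts, edgeR and the build mm10, without versions. Columns were matched to samples by name, and 2 columns (Ovol2b-Tg EpiLC) to their group only. The 6 genes and all lists were chosen with earlier results of these data known. Genes that reached 1 TPM in 2 or more libraries were kept (14416), and log2(TPM + 1) was tested with limma 3.58.1 (R 4.3.3, trend and robust options). Comparisons between lines used the 18 libraries of a stage (9 residual degrees of freedom) and those between stages all 54 (27 residual degrees of freedom). Values of ± are SE, and an adjusted p is Benjamini-Hochberg over all tested genes. A permutation of 2 against 2 libraries cannot go below 0.33 (two-sided), so none is given. Named pathway genes are from the 6 with the largest called change in a PGCLC comparison with WT or in WT PGCLC against EpiLC, not all of which are described, and marker genes are named by list. Cxcl12, Ackr3, Nrp1, Nrp2, Flt1 and Vegfa, given in other lines too, were chosen after their values were seen. The 3 genes most like each of the 6 were named too, of which 1 (for Tal1) is not reported here, where likeness is Pearson's r over 27 group means of log2(TPM + 1). TPM steps gave whole reads (100% of values of 17442 genes within 0.001 read), which were used for limma-voom as an alternative and for floors of 3 reads, which cover counting error only. Library pairs differed beyond counting noise in all 27 groups (chi-square per degree of freedom 1.05 to 10.43). Other alternatives were a pseudocount of 0.1, no filter, quantile normalization, a fit of 4 libraries, a fit without 3 transgenic lines, a replicate block and leaving out each library.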

Additional observations from a re-analysis of the deposited data

Results flagged for a closer look

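For each line the difference from WT in PGCLC was set against the difference from WT in EpiLC, on the log2(TPM + 1) scale, with limma over all 54 libraries. These tests share the WT libraries of both stages. Kdr did not exceed 0.227 TPM in EpiLC, so its values here mostly restate its differences from WT in PGCLC. Among the 6 genes, 22 such differences of effects passed, and 10 of them passed under every alternative run.

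In the TKO-labelled line 5 of 6 genes passed, where 9.41% of tested genes did. Pecam1 differed by 3.08 ± 0.34 (adjusted p = 1.44e-08), since it was lower than WT in EpiLC and higher in PGCLC. Cxcr4 differed by 2.89 ± 0.35 (adjusted p = 9.68e-08) and Tal1 by 1.74 ± 0.29 (adjusted p = 2.54e-05), and these 3 held under every alternative. Etv2 (1.92 ± 0.66, adjusted p = 0.0345) was lost without replicate 1 (2.08) or 2 (1.76) of TKO PGCLC, replicate 2 of WT PGCLC (1.58), of TKO EpiLC (1.75) or of WT EpiLC (1.69). Kdr (1.12 ± 0.31, adjusted p = 0.00654) was lost without replicate 2 of TKO PGCLC (0.80), of WT PGCLC (0.90) or of TKO EpiLC (0.98). By limma-voom the Kdr value was -0.70 (adjusted p = 0.739), with the WT EpiLC pair at no read.

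In the Ovol3KO-labelled line 4 of 6 passed, where 16.1% did. Pecam1 had 2.4 ± 0.34 (adjusted p = 8.66e-07) and Lmo2 -1.26 ± 0.36 (adjusted p = 0.00583), and both held throughout. Kdr had -1.21 ± 0.31 (adjusted p = 0.0017) and was lost without replicate 1 of WT PGCLC (-0.99). Etv2 had -1.89 ± 0.66 (adjusted p = 0.0218) and was lost without replicate 2 of Ovol3KO PGCLC (-1.76), replicate 1 of WT PGCLC (-1.55), of Ovol3KO EpiLC (-1.69) or of WT EpiLC (-1.67).

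In the Ovol2KO-labelled line 3 of 6 passed, where 7.71% did: Cxcr4 at 1.80 ± 0.35 (adjusted p = 0.000333), Lmo2 at 1.61 ± 0.36 (adjusted p = 0.00164) and Pecam1 at 1.27 ± 0.34 (adjusted p = 0.00836). Cxcr4 held throughout, Lmo2 was lost with 0.1 added to the TPM (1.72, adjusted p = 0.0661), and Pecam1 was lost without replicate 1 of Ovol2KO PGCLC (1.03) and by limma-voom (1.75, adjusted p = 0.0848). In the Ovol1KO-labelled line limma and limma-voom called 0 of 6, where 0.576% passed, with 2 at an unadjusted p under 0.05. Without replicate 2 of Ovol1KO PGCLC, Etv2 (-2.16) and Pecam1 (1.65) were called there.

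Among transgenic lines Cdh1-Tg (9.61% of tested genes) had 3 of 6, with Pecam1 at 4.76 ± 0.34 (adjusted p = 9.01e-13), Cxcr4 at 1.24 ± 0.35 (adjusted p = 0.00971) and Lmo2 at 1.18 ± 0.36 (adjusted p = 0.017). Cxcr4 was lost without replicate 2 of WT PGCLC (0.86) or of WT EpiLC (0.92), and Lmo2 without either of those (1.14 and 1.11) or replicate 1 of Cdh1-Tg PGCLC (1.16). Ovol2b-Tg (7.60%) had 3 of 6, with Pecam1 at 2.66 ± 0.34 (adjusted p = 4.96e-07), Cxcr4 at 2.00 ± 0.35 (adjusted p = 8.18e-05) and Kdr at 1.12 ± 0.31 (adjusted p = 0.00845). The Kdr value was lost without replicate 2 of Ovol2b-Tg PGCLC (0.92), of WT PGCLC (0.90) or without 1 Ovol2b-Tg EpiLC library (1.0), and it was 0.13 by limma-voom. Ovol2a/2b-Tg (7.07%) had Pecam1 at 3.26 ± 0.34 (adjusted p = 1.19e-08) and Cxcr4 at 1.38 ± 0.35 (adjusted p = 0.00505), the latter lost without replicate 2 of WT PGCLC (1.0) or WT EpiLC (1.06). Ovol2a-Tg (3.01%) had Cxcr4 at 1.39 ± 0.35 (adjusted p = 0.0115) and Pecam1 at 1.24 ± 0.34 (adjusted p = 0.0212). Both were lost without replicate 2 of Ovol2a-Tg PGCLC (1.34 and 0.94), of Ovol2a-Tg EpiLC (1.22 and 1.14) or of WT EpiLC (1.07 and 1.1). Cxcr4 was also lost without replicate 2 of WT PGCLC (1.01), and Pecam1 without replicate 1 of WT PGCLC (1.13). With 0.1 added to the TPM the values of Kdr in TKO (0.83) and Ovol2b-Tg (0.91), Etv2 in TKO (2.03) and Ovol3KO (-2.25), Cxcr4 in Cdh1-Tg (1.1), Ovol2a/2b-Tg (1.56) and Ovol2a-Tg (1.61) and Lmo2 in Cdh1-Tg (1.29) were not called either, nor was Cxcr4 in Cdh1-Tg by limma-voom (1.54).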

How the results depend on the processing

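Of the settings run, 1 turned a called value: Kdr in the difference of effects of TKO, 1.12 by limma and -0.70 by limma-voom. The number of the 6 genes called moved as follows, and the cause was not tested. Between WT PGCLC and ESC it went from 4 to 5 with 0.1 added to the TPM, by limma-voom and without replicate 2 of WT ESC. With 0.1 added to the TPM it also went from 0 to 1 in ESC Ovol3KO and from 0 to 2 in EpiLC Ovol3KO against WT. From EpiLC to PGCLC it went from 2 to 5 in Ovol1KO and from 3 to 5 in Ovol2a/2b-Tg. In differences of effects it went from 5 to 3 in TKO, from 2 to 1 in Ovol2a-Tg and Ovol2a/2b-Tg and from 3 to 1 in Cdh1-Tg. By limma-voom it went from 0 to 1 in ESC Cdh1-Tg against WT, from 2 to 4 in EpiLC Cdh1-Tg against WT, from 1 to 0 in PGCLC Ovol1KO against WT, from 0 to 1 in PGCLC Ovol2b-Tg against TKO and from 2 to 4 in Ovol1KO from EpiLC to PGCLC. In a fit of the 4 libraries alone, with fewer libraries to estimate the spread, it went from 1 to 0 in EpiLC Ovol2KO and PGCLC Ovol1KO against WT, from 4 to 2 in PGCLC TKO against Ovol2KO and from 2 to 1 in Ovol1KO from EpiLC to PGCLC. It was also 0 in PGCLC Ovol1KO with no filter and without 3 transgenic lines in the fit. Leaving out 1 library gave 0 to 1 (ESC Ovol3KO, EpiLC Ovol2KO), 0 to 3 (EpiLC Ovol3KO) and 1 to 2 (EpiLC Cdh1-Tg) against WT. In PGCLC it gave 0 to 2 (Ovol1KO against WT), 1 to 2 (Ovol2a-Tg against WT), 1 to 3 (TKO against Ovol2KO) and 0 to 1 (Ovol2b-Tg against TKO). Between stages it gave 3 to 5 (WT from ESC to EpiLC) and 1 to 3 (Ovol1KO and Ovol3KO from EpiLC to PGCLC). For differences of effects it gave 0 to 2 in Ovol1KO and Ovol2a-Tg, 1 to 3 in Cdh1-Tg, 1 to 2 in Ovol2a/2b-Tg, 2 to 4 in Ovol3KO, 2 to 3 in Ovol2KO and Ovol2b-Tg and 3 to 5 in TKO. These ranges and limma-voom for differences of effects were chosen after seeing the data. Over all tested genes the calls in PGCLC Ovol1KO against WT went from 96 to 35 with no filter, 24 by limma-voom, 27 without 3 transgenic lines, 0 with 4 libraries and 13 to 489 leaving out a library, and those of Ovol2a-Tg from 494 to 900 by limma-voom and 290 to 607 leaving out a library. Quantile normalization moved the median of all genes by 0.109 to 0.185 in the EpiLC to PGCLC steps other than Ovol3KO and by -0.125 in PGCLC Ovol3KO against WT, and turned no direction of a called gene. Same-numbered libraries deviated together with correlations of -0.13 to 0.20 (median -0.01, 2 of 38 comparisons over 0.1), so no strong shared effect of the number was seen. Counting noise enters these correlations, so they cannot tell whether same-numbered samples were processed together. With the replicate block 269 values stayed on their side of the threshold and 1 did not, Etv2 in PGCLC Ovol2a-Tg against TKO (-1.36, adjusted p = 0.0512). The block was not run where Ovol2b-Tg EpiLC enters. Values of Kdr and Tal1 near 0 rest on a few reads.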

Other observations

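The early germ cell markers were Prdm1, Prdm14, Tfap2c, Dppa3, Nanos3 and Dnd1. Their summed level in PGCLC was 158 and 164 TPM in WT, 360 and 347 TPM in the Ovol3KO-labelled line, 64.8 and 73.9 TPM in the TKO-labelled line and 90.8 and 63.4 TPM in the Ovol2KO-labelled line. This sum was higher in ESC, with a median of 335 TPM against 109 TPM in PGCLC, so it is no measure of germ cells alone. The naive pluripotency markers were also highest in Ovol3KO, at 449 and 395 TPM against 208 and 200 TPM in WT. Pecam1 was high in that line (mean 31.7 TPM), and Kdr and Lmo2 were low. Pecam1 was also high in Ovol2a/2b-Tg (mean 28.6 TPM), where both sums were below WT. There the germ cell markers summed to 91.9 and 110 TPM and the naive markers to 136 and 154 TPM. In Ovol1KO the germ cell markers summed to 243 and 205 TPM at a Pecam1 mean of 8.89 TPM. A relation between Pecam1 and these sums was not tested. Cdh1 mRNA in PGCLC was 312 and 320 TPM in WT, 24.0 and 17.2 TPM in the TKO-labelled line, 42.3 and 35.4 TPM in the Ovol2KO-labelled line and 54.8 and 58.0 TPM in Ovol2b-Tg. Ovol2 in Ovol2KO-labelled EpiLC was 33.7 and 34.6 TPM, above the 9.51 and 12.7 TPM of WT.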
